A study of Mus musculus with 12 samples.

Results

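The major urinary proteins (MUPs) are encoded by a cluster of closely related Mup genes on mouse chromosome 4. The deposited table holds 20 genes whose symbol is Mup followed by a number, among 17498 genes with a protein-coding transcript. Described here are 8 of the 20, Mup1, Mup2, Mup3, Mup7, Mup11, Mup12, Mup20 and Mup21, which together have 19 transcripts in the table (39 for all 20). These genes were selected on their FPKM values in an earlier comparison of the model livers with the control livers in these same data, in which they stood out. That comparison is therefore given as a description, with no test. All 8 passed the filter on low values, a mean of at least 0.5 FPKM (fragments per kilobase of transcript, scaled to library size) over the 12 livers. A gene that is high in 1 group passes such a filter through that group.

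MUPs are small lipocalins, barrel-shaped carriers of hydrophobic ligands, that hepatocytes make and secrete into the blood and that the kidney passes into the urine, where they bind and slowly release volatile pheromones. Mup20, called darcin, is itself a pheromone of male urine that attracts females. Males make more MUP than females, and the pulsed growth hormone of males, acting through its receptor and STAT5b in hepatocytes, is a known regulator of many Mup genes.

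The samples were whole livers of male C57/BL6N mice, 3 separate livers in each of 4 groups. Control mice, labelled WT, received no CCl4. Model mice received carbon tetrachloride (CCl4), a hepatotoxin, dissolved in olive oil. It was injected into the peritoneum repeatedly each week for 8 weeks, at 5 mL/kg each time, which gives liver fibrosis. Silibinin mice and phloridzin mice had the same CCl4 course with the drug from week 5 on. Silibinin, a flavonolignan of milk thistle, was the study's reference drug, and phloridzin, a dihydrochalcone glucoside isolated from lychee seed, was sequenced at the high dose. Total RNA was sequenced to between 105.2 and 109.6 M fragments per control library, 83.7 and 101 M per model library, 107 and 111 M per silibinin library and 98.5 and 104.7 M per phloridzin library, as recovered from the steps of the values. In bulk tissue, fewer hepatocytes and less Mup RNA per hepatocyte cannot be told apart.

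The 20 Mup genes lie between positions 59956804 and 62150863 of chromosome 4 (build GRCm38), and all but Mup6 are on the minus strand. From the coding sequences of the reference transcripts, 543 to 555 bases long, the 8 genes fall into a near-identical set and 3 more distinct genes. Mup1, Mup2, Mup7, Mup11 and Mup12 share 98.35 to 99.63% of coding positions pair by pair (10 pairs, median 99.17%), and Mup1 and Mup12 differ at 2 positions. Mup20 shares 90.11 to 91.39% with these 5 genes, Mup21 83.7 to 84.8% and Mup3 82.44 to 83.69%. Mup3 and Mup21, neighbours at the far end of the cluster, share 94.77% with each other. Genes outside the 8 are as near to the 5 as these are to each other. Mup15 shares 99.63% with Mup2, Mup18 99.82% with Mup11, Mup17 98.71% with Mup12 and Mup13 98.9% with Mup2. The near-identical 5 are thus part of a larger near-identical set.

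Short reads can assign RNA to 1 gene where its sequence is found in no other gene. Of all 100-base windows of the reference transcript, 97.1% in Mup3, 95.5% in Mup21 and 61.2% in Mup20 occurred in no other gene. The share was 22.5% in Mup12, 16.5% in Mup11, 12.9% in Mup7, 12.8% in Mup1 and 2.7% in Mup2. The read length is not given in the sources used here, and the shares depend on the window. With windows of 50 and of 150 bases they were 0.0 and 9.3% in Mup2, 5.2 and 17.5% in Mup1, 3.6 and 22.5% in Mup7 and 49.5 and 68.9% in Mup20. At each length the 3 distinct genes stood above the near-identical 5. For the near-identical 5, the division of fragments among genes therefore rests on few positions, and their sum is given beside each gene. How the authors' processing divided shared fragments is not given in the sources used here, and assembled transcripts without a gene symbol are in none of the sums. The sums may therefore hold part of the Mup RNA of a liver, and their folds describe the fragments given to these genes.

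**Figure D1:**
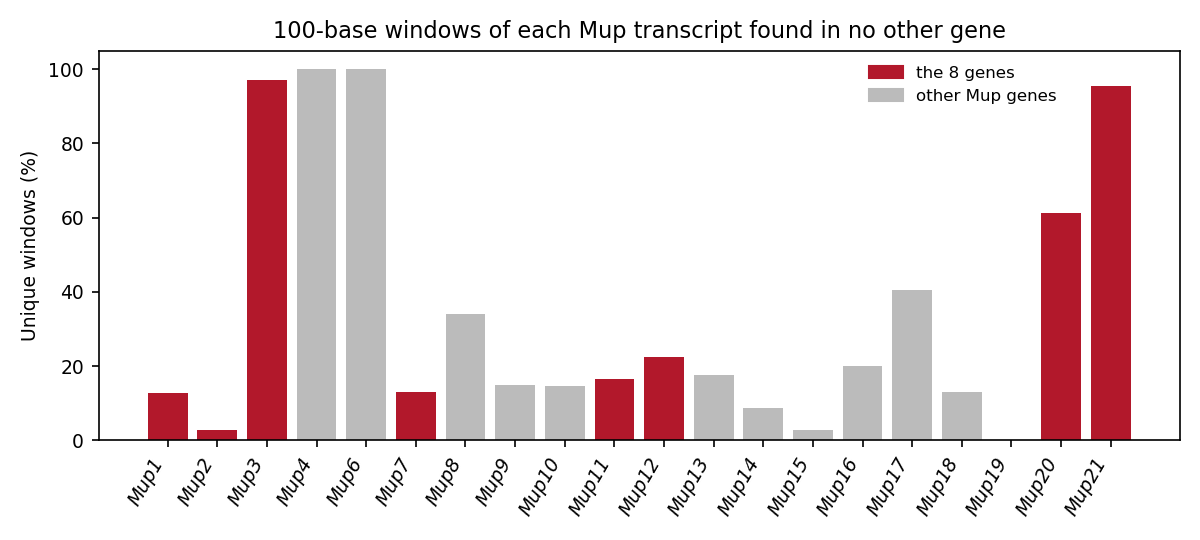
Percent of the 100-base windows of each Mup reference transcript that occur in no other gene (bars, 1 per gene; red for the 8 genes described, grey for the other 12). Mup3 (97.1%), Mup21 (95.5%) and Mup20 (61.2%) stand above the near-identical genes, which lie between 2.7% for Mup2 and 22.5% for Mup12.

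The regions just before the gene starts show the same grouping, and are printed because the genes they precede moved together or apart in the livers. Of the 8 genes, 5 had a promoter in RefSeq (GRCm38.p6), and Mup1, Mup12 and Mup20 had none. Each sequence below is the 250 bases before the start on the minus strand, at chr4:60139857-60140106 for Mup2, chr4:60070476-60070725 for Mup7, chr4:60662396-60662645 for Mup11, chr4:62087318-62087567 for Mup3 and chr4:62150842-62151091 for Mup21. Capitals mark a match to TATANAA, a form of the TATA box.
Mup2: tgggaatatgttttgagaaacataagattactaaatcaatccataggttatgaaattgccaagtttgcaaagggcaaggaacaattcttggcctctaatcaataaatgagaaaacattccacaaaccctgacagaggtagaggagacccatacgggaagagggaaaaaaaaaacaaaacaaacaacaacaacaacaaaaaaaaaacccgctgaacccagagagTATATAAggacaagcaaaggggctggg
Mup7: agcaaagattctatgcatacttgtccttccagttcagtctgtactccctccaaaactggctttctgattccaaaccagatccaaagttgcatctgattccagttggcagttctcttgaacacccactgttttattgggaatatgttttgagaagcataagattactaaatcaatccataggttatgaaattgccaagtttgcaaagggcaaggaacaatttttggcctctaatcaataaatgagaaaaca
Mup11: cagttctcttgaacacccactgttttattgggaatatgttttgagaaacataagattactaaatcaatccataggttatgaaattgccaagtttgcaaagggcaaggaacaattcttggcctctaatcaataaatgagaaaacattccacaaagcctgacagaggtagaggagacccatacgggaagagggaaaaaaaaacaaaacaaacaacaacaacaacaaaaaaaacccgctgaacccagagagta
Mup3: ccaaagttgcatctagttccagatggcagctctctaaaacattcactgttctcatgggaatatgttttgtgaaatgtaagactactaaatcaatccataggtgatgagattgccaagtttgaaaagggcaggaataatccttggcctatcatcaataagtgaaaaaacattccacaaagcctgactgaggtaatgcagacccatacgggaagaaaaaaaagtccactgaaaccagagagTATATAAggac
Mup21: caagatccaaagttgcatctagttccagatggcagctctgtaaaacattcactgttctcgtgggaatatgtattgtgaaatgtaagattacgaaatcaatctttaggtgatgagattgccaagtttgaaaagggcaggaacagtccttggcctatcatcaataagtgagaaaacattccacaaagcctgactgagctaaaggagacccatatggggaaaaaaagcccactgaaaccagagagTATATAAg
TATANAA begins at position -27 in Mup2, -11 in Mup3 and -8 in Mup21, with -1 the last base before the start, and has no match in the Mup7 and Mup11 windows. The Mup11 window ends in ta where Mup2 reads TATATAA, and the Mup7 window ends before this stretch, so the lack of a match there follows from where the annotated starts lie. Deposited transcripts of Mup2, Mup11, Mup3 and Mup21 begin inside their windows, at 60139897, 60662411, 62087342 and 62150863, and the positions count from the RefSeq start. The marked stretch of Mup2, Mup3 and Mup21 lies downstream of these starts, inside the transcripts that begin there. Other deposited transcripts begin after the stretch, of Mup2 at 60139857 and of Mup3 at 62087289 and 62087261. The Mup3 transcript from 62087289 held most of the Mup3 level, at 2849, 3987 and 4063 FPKM in control livers. On either strand TATANAA is found in 10.4% of the 32851 mouse promoters of this length, and its letters were chosen after the sequences were seen. TTCNNNGAA (bound by STAT5, in 7.0% of all promoters), TTGCNNAA (C/EBP, 9.6%) and ACANNNTGT (glucocorticoid receptor, 5.8%) had no match on either strand in any of the 5 windows. Over the aligned overlap, identity was 98.2% between Mup2 and Mup11 (225 positions), 98.3% between Mup2 and Mup7 (116 positions) and 98.6% between Mup7 and Mup11 (144 positions). It was 92.3% between Mup3 and Mup21 (247 positions) and 81.0% between Mup2 and Mup3 (200 positions). A match or its lack describes these letters in these windows only.

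In control livers, Mup3 and Mup20 were the most abundant of the 8 genes. Mup3 (Ensembl ENSMUSG00000066154) was at 3302, 4738 and 4901 FPKM and Mup20 at 2941, 3581 and 3649 FPKM. Mup3 was above Mup20 in 3 of 3 control livers. Mup11 (377, 709 and 1754 FPKM), Mup12 (61.3, 1532 and 1236 FPKM) and Mup2 (448, 309 and 635 FPKM) came next, also with overlapping ranges. Mup1 was at 108, 103 and 179.8 FPKM and Mup21 at 28.7, 79.6 and 100.8 FPKM. Mup7 was at 522 FPKM in control 3, at 0.00890 FPKM in control 2 and at 0 in control 1. The fragments given to Mup12 and Mup7 thus differed widely between livers of the same group, while Mup3, Mup20 and Mup1 kept within a narrow band.

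Summed over the 8 genes, control livers held 7266, 11051 and 12978 FPKM, or 10432 ± 2906 (SD, n = 3). The 8 genes took 0.671, 1.02 and 1.20% of all fragments of these libraries. Mup3 made up 37.8 to 45.4% of the sum and Mup20 28.1 to 40.5%. The near-identical 5 added 994, 2653 and 4327 FPKM, so much of the spread of this sum between the 3 control livers came with these 5 genes. The near-identical Mup17, outside the 8, was at 1516 FPKM in control 1, where Mup12 was lowest, and at 1.08 and 0.236 FPKM in controls 2 and 3. Summed over all 20 Mup genes, control livers held 9626, 12292 and 15721 FPKM. The part of fragment division among paralogs in the spread was not tested.

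The question asked of the model and control livers was how the CCl4 course changes the liver. In all 3 model livers few fragments were left on the near-identical genes, and the distinct genes were lower than in controls. The 8-gene sum was 4543, 4074 and 3926 FPKM in the model livers, 4181 ± 322 (SD, n = 3), and every model liver lay below every control liver. The ratio of group means was 0.401, a log2 ratio of -1.32 (-1.75 after scaling by median ratios), and the sum held 0.362 to 0.419% of all fragments. Since this contrast chose the genes, none of the values that follow is tested. Of the 8 genes, 7 had groups that did not overlap, all lower in the model. The groups did not overlap for 53.5% of the 11989 genes tested, and 11.1% were differentially expressed (DE) in this contrast (9.98% DE and higher, 1.13% DE and lower).

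Among the near-identical genes, Mup2 went to 1.95, 0.453 and 2.26 FPKM in the model livers, a fitted log2 fold change of -7.53. Mup12 was at 0 in all 3 model livers. With 3 fragments over the group as the limit of a count of 0, 0.0114 FPKM, the level given to Mup12 was at least 83000-fold below the control mean of 943 FPKM. This limit covers counting error only. It does not cover how shared fragments were divided, and 22.5% of the 100-base windows of Mup12 occurred in no other gene. The fold is thus no lower bound on the fall of Mup12 RNA. Mup11 was at 5.31, 2.72 and 16.1 FPKM (log2 fold change -6.72). Mup1 was at 1.96, 3.28 and 8.98 FPKM (log2 fold change -4.67). Mup7 was at 9.01 FPKM in model 2 and at 0 in the other 2, and its groups overlapped, since 2 control livers were near 0 too. Without control 3 its log2 fold change turned from -1.91 to 1.10. The near-identical sum does not depend on how fragments were shared out within the 5: it was 9.22, 15.5 and 27.4 FPKM, 153-fold below the control mean. It still depends on how fragments were divided between these 5 and other Mup genes, several of them as near in sequence. The 12 other Mup genes had a mean sum of 2114 FPKM in control and 198 FPKM in model livers, 10.7-fold lower. In the model this was above the mean of 17.4 FPKM of the 5, so the fold of 153 holds only for the 5 as chosen. The near-identical sum also leaves out an assembled locus without a symbol that ran with it (r of 0.957, under Other observations). That locus was at 26669 to 58305 FPKM in control livers and 3549.8 to 4688 FPKM in model livers. Whether it holds Mup RNA, which would change the fold of the family, was not tested.

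The distinct genes were closer to their control level. Mup3 was at 2076, 2361 and 2219 FPKM in the model livers, with a fitted log2 fold change of -0.94. Mup20 was at 2437, 1676 and 1668 FPKM, with a log2 fold change of -0.83. Mup21 was at 20.8, 20.9 and 11.7 FPKM, with a log2 fold change of -1.78. For each of the 3 every model liver was below every control liver. Their sum was 4534, 4058 and 3898 FPKM, a ratio of means of 0.536, so that Mup3 and Mup20 held nearly all of the fragments given to the 8 genes in the model. These differences stand against a median log2 fold change of 0.35 over all genes tested; scaling by median ratios shifted that median by -0.32 and gave -1.36 for Mup3 and -1.26 for Mup20.

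**Figure D2:**
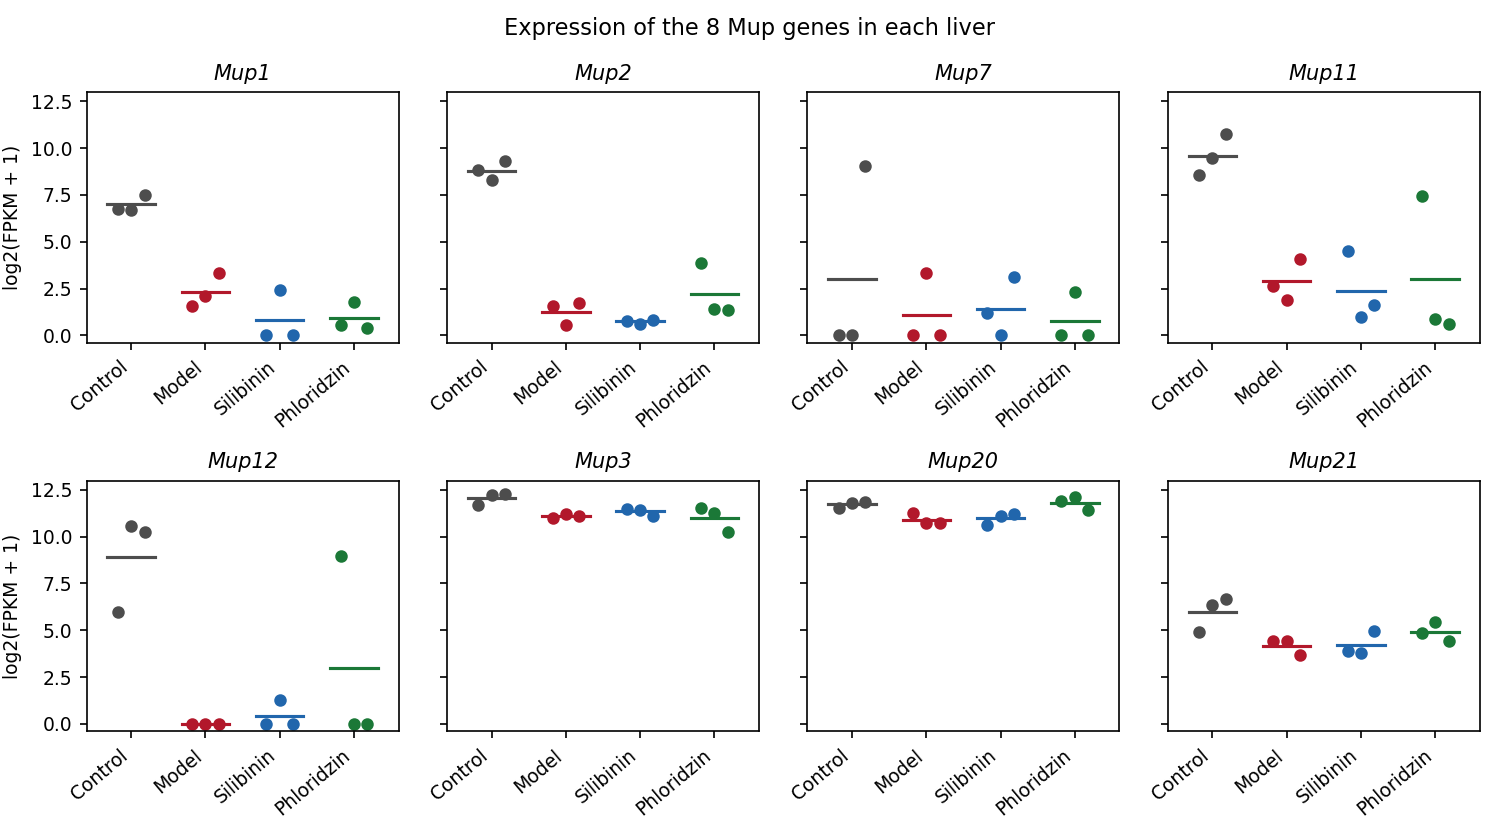
Level of each of the 8 Mup genes as log2(FPKM + 1) in each liver (points, 3 per group; lines are group means), by group. Control livers lie above all model livers in every panel but that of Mup7; Mup12 is at 0 in the 3 model livers and at 504 FPKM in phloridzin 1.

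**Figure D3:**
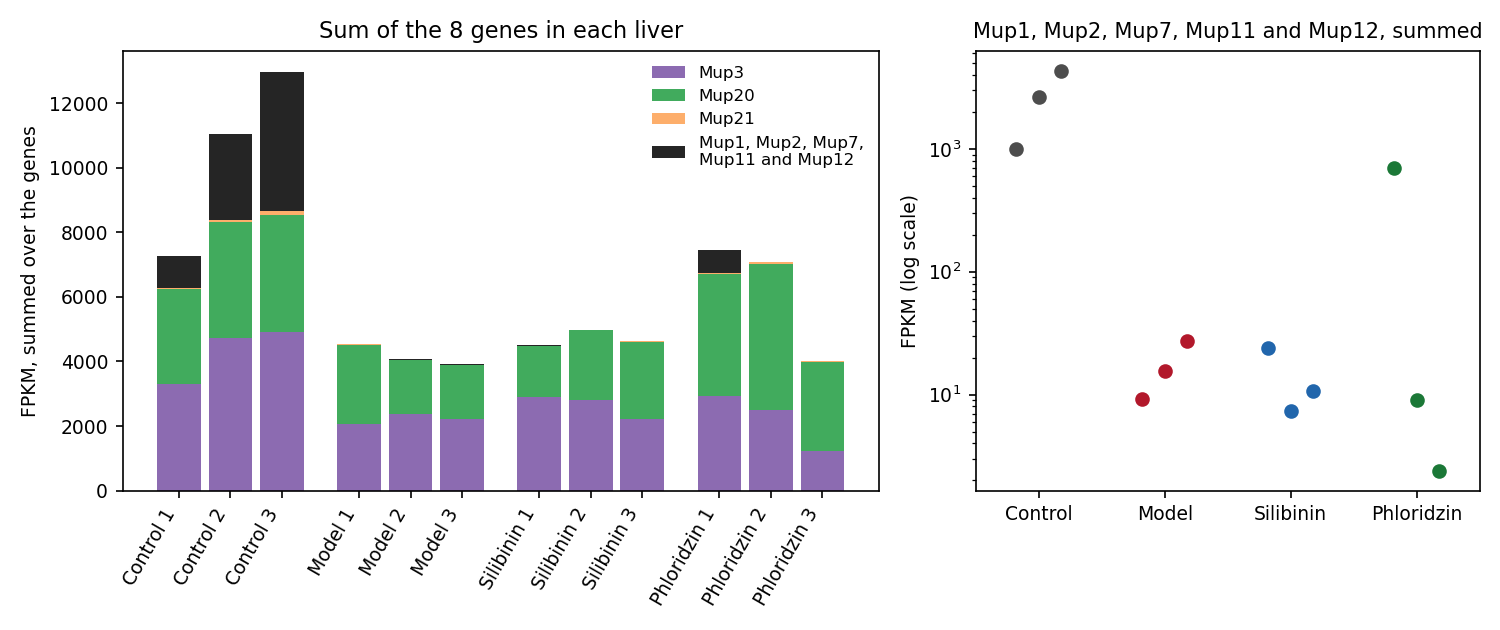
Left, FPKM summed over the 8 genes in each liver (bars, stacked by Mup3, Mup20, Mup21 and the near-identical 5). Right, FPKM summed over Mup1, Mup2, Mup7, Mup11 and Mup12 on a log scale (points, 1 per liver), between 994 and 4327 in control livers and between 2.40 and 27.4 in the CCl4 livers other than phloridzin 1, at 692.

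Silibinin was compared with the model to ask what the drug changes under CCl4; the comparison shares the model livers with the contrast that chose the genes. None of the 8 Mup genes was called different between these groups, and for every gene the groups overlapped. For the near-identical genes this shows little, since the 95% interval was wide, -4.11 to 3.10 for Mup11 and -4.17 to 5.03 for Mup12. The 8-gene sum was 4516, 4988 and 4636 FPKM in silibinin livers, 4714 ± 245 (SD, n = 3), which overlaps the model range, with a ratio of means of 1.13 (log2 0.17, or 0.39 after scaling). The near-identical 5 summed to 23.9, 7.41 and 10.7 FPKM. All 3 were far below the lowest control liver, at 994 FPKM.

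Mup3 was at 2889.7, 2798 and 2233 FPKM in silibinin livers, against 2076 to 2361 FPKM in the model. Its log2 fold change was 0.24 (SE 0.33, 95% interval -0.48 to 0.97, adjusted p = 0.6685 by limma with the Benjamini-Hochberg method). Mup20 was at 1589, 2169.8 and 2363 FPKM, around the model values, with a log2 fold change of 0.09 (95% interval -0.52 to 0.70, adjusted p = 0.8712) that turned to -0.03 without silibinin 3. For both abundant genes the interval lay within a log2 fold change of 1 on either side of 0. The 8 genes included 0 called DE by limma (adjusted p under 0.05 and a log2 fold change beyond 1 in size), 1 at an unadjusted p under 0.05 and 0 called by voom. Over all genes tested, 4.29% were DE (0.792% higher, 3.49% lower) and 30.1% were at an unadjusted p under 0.05. The gene at an unadjusted p under 0.05 was Mup1, at 0.0101, 4.44 and 0 FPKM in silibinin livers, with a log2 fold change of -1.51 and an adjusted p of 0.1638. Without silibinin 2 it was called lower (log2 fold change -2.32, adjusted p = 0.0253; range over all alternatives 0.0253 to 0.4050). Groups did not overlap for 0 of the 8 genes and for 37.6% of all genes tested.

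Phloridzin was compared with the model for the same purpose. This comparison too shares the model livers with the contrast that chose the genes, so a higher value than in the model was in part built into the choice. Its p-values and calls, with all livers or under alternatives, are therefore given as a description. Of the 8 genes, Mup20, the darcin gene, was the 1 with an adjusted p under 0.05. It was at 3788, 4527 and 2768 FPKM in phloridzin livers, against 2437, 1676 and 1668 FPKM in the model. All 3 phloridzin livers lay above all 3 model livers and around the control range of 2941 to 3649 FPKM. The log2 fold change was 0.93 (SE 0.28, 95% interval 0.32 to 1.54) with an adjusted p of 0.0473, past the threshold on p but short of the log2 fold change of 1 that a call required. It was called higher after scaling by median ratios (log2 fold change 1.12, adjusted p = 0.0330), without model 1 (1.11, adjusted p = 0.0459) and without phloridzin 3 (1.13, adjusted p = 0.0383), and its adjusted p ranged from 0.0293 to 0.1955 over all alternatives.

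As deposited, 0 of the 8 genes were called DE by limma in this comparison, 1 was at an unadjusted p under 0.05 and 0 were called by voom (2 at an unadjusted p under 0.05), while 3.77% of all genes tested were DE (0.651% higher, 3.12% lower) and 28.6% were at an unadjusted p under 0.05. Mup20 was also the 1 gene of the 8 whose groups did not overlap, against 31.6% of all genes tested. Mup3 was at 2933, 2499 and 1229.5 FPKM, with a log2 fold change of -0.09 (95% interval -0.82 to 0.64, adjusted p = 0.8825) that turned to 0.10 after scaling by median ratios and to 0.29 without phloridzin 3. Mup21 was at 28.2, 43.2 and 20.3 FPKM, with phloridzin 3 inside the model range, with a log2 fold change of 0.73 and an adjusted p of 0.3591.

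The near-identical genes among those described split the phloridzin group by liver. In phloridzin 1, Mup12 was at 504 FPKM and Mup11 at 174 FPKM, against 0 and 0.852 FPKM in phloridzin 2 and 0 and 0.546 FPKM in phloridzin 3. Mup2 was at 13.8, 1.63 and 1.55 FPKM, with a log2 fold change against the model of 0.94 (adjusted p = 0.3402) that went to 0.10 without phloridzin 1, and Mup1 at 0.478, 2.46 and 0.310 FPKM. The near-identical sum was 692, 9.01 and 2.40 FPKM. By this sum phloridzin 1 was nearest to control 1 (994 FPKM) and the other 2 livers were below the model range. The sum of the Mup genes not described ran the other way, at 46.2, 142 and 199 FPKM. In the model that sum was 140 to 294 FPKM, so phloridzin 2 and phloridzin 3 lay within its range. Among those genes Mup13 was at 0, 118 and 193 FPKM, while Mup18 was highest in phloridzin 1, at 8.06 FPKM. The part of fragment division among paralogs in this split was not tested. Phloridzin 1 also stood apart over all genes: its correlation with the other phloridzin livers (r on the log2 scale) was 0.923 and 0.917, against 0.952 between those 2 and 0.941 to 0.955 within the other groups. Without it, the log2 fold change of Mup11 against the model turned from 0.10 to -2.13 and that of Mup12 went from 2.99 to 0. Mup11 also turned, to -0.40, at a pseudocount of 0.1 and, to -0.18, by voom.

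The 8-gene sum in phloridzin livers was 7442, 7079 and 4020.3 FPKM, 6180 ± 1879 (SD, n = 3). Phloridzin 1 and phloridzin 2 were above all model livers and phloridzin 3 was within the model range, with a ratio of means of 1.48. Mup20 made up 50.9, 64.0 and 68.9% of the sum, against 41.1 to 53.6% in the model and 28.1 to 40.5% in the controls. In phloridzin 2 and phloridzin 3, as in every model and silibinin liver, the sum came from Mup20 and Mup3 almost alone.

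Whether the drugs differed was asked directly by comparing phloridzin with silibinin, a comparison that shares no liver with the contrast that chose the genes. Mup20 was higher in all 3 phloridzin livers (2768 to 4527 FPKM) than in all 3 silibinin livers (1589 to 2363 FPKM), with a log2 fold change of 0.85 (SE 0.28, 95% interval 0.24 to 1.46, moderated t of limma). Its adjusted p over all genes was 1.0000 (0.7558 to 1.0000 over all alternatives), so the difference between the drugs did not pass the test. Mup2 was likewise higher in all 3 phloridzin livers, 1.55 to 13.8 FPKM against 0.549 to 0.784 FPKM, with a log2 fold change of 1.46 (95% interval 0.14 to 2.79) and an adjusted p of 1.0000, and it went to 0.63 without phloridzin 1. Of the 8 genes, 0 were called DE by limma, 2 were at an unadjusted p under 0.05 and 0 were called by voom, and 2 had groups that did not overlap. DE genes were rare in this comparison, 0.025% of all genes tested (0.00834% higher, 0.0167% lower), while 3.63% were at an unadjusted p under 0.05 and 7.62% had groups that did not overlap. Mup3 had a log2 fold change of -0.33 (95% interval -1.06 to 0.39).

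Silibinin livers were set against control livers to see how far the treated livers were from untreated ones. The control livers are shared with the contrast that chose the genes, so a lower value of these genes was in part built into the choice. The calls and adjusted p-values of this comparison reuse those control values. They are therefore given as a description and support no conclusion. All 8 genes had a negative fitted log2 fold change, and 6 had groups that did not overlap. For Mup7, at 1.25, 0 and 7.78 FPKM, the sign rested on control 3: its log2 fold change of -1.58 turned to 1.43 without that liver, and to 0.0923 by voom. By limma 4 of the 8 were DE, all lower (3 by voom), while 2.18% of all genes were DE (1.9% higher, 0.275% lower) and 31.5% had groups that did not overlap. Mup2 had a log2 fold change of -8.05 (95% interval -9.38 to -6.73, adjusted p = 0.00022), lower in 3 of 3 livers. Mup1 had a log2 fold change of -6.17 (95% interval -7.67 to -4.67, adjusted p = 0.0020). Mup11 (log2 fold change -7.23, adjusted p = 0.0300) and Mup12 (-8.51, adjusted p = 0.0403) completed the 4.

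In silibinin against control, all 20 alternatives gave the calls of Mup1 and Mup2. They share the choice of genes made on the control livers, so this too is a description. That of Mup11 was lost without any 1 of the 3 control or 3 silibinin livers (adjusted p between 0.0547 and 0.1230). That of Mup12 was lost without any 1 of the control, model or silibinin livers (adjusted p between 0.0530 and 0.1289), with no filter on low values (0.0569), with protein-coding transcripts only (0.0554) and by voom (0.2688). The abundant genes were lower without passing: the log2 fold change was -0.70 for Mup3 (adjusted p = 0.2383) and -0.75 for Mup20 (adjusted p = 0.1430), each lower in 3 of 3 livers. Mup21, at 14.1, 12.98 and 29.9 FPKM, had a log2 fold change of -1.74 (adjusted p = 0.0601). It was called at a pseudocount of 0.1 (adjusted p = 0.0481), without control 1 (0.0304) and without silibinin 3 (0.0373), in a range of 0.0304 to 0.2082.

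Phloridzin livers, compared with the same control livers, had Mup1, Mup2 and Mup11 below every control liver, while the values of Mup20 overlapped those of the controls. A lower value was again in part built into the choice of genes. The calls and adjusted p-values of this comparison are therefore a description and no separate test. The log2 fold change of Mup20 was 0.10 (95% interval -0.51 to 0.71, adjusted p = 0.8580), and it turned to -0.14 after scaling by median ratios and to -0.06 without phloridzin 2. By limma 3 of the 8 genes were DE, all lower (3 by voom), while 3.34% of all genes were DE (3.03% higher, 0.317% lower). They were Mup2 (log2 fold change -6.59, adjusted p = 0.00071), Mup1 (-6.08, adjusted p = 0.0021) and Mup11 (-6.61, adjusted p = 0.0340), each lower in 3 of 3 livers. Groups did not overlap for 4 genes, these 3 and Mup3, against 30.5% of all genes tested.

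The call of Mup11 was lost without any 1 of the control livers, without phloridzin 2 or without phloridzin 3 (adjusted p between 0.0711 and 0.1054), with protein-coding transcripts only (0.0580) and with only the 2 groups in the fit (0.1092). Mup12, at 504 FPKM in phloridzin 1 and 0 in the other 2 livers, had a log2 fold change of -5.94 (adjusted p = 0.0999), and without phloridzin 1 it was called lower (-8.94, adjusted p = 0.0056; range over all alternatives 0.0056 to 0.2555). Mup3 had a log2 fold change of -1.03 (95% interval -1.75 to -0.30, adjusted p = 0.0768) and was called lower after scaling by median ratios (-1.27, adjusted p = 0.0420; range 0.0420 to 0.2326). Mup21 had a log2 fold change of -1.05 (adjusted p = 0.2020). The silibinin and phloridzin comparisons share their control livers, so the values of the one are not independent of the other.

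**Figure D4:**
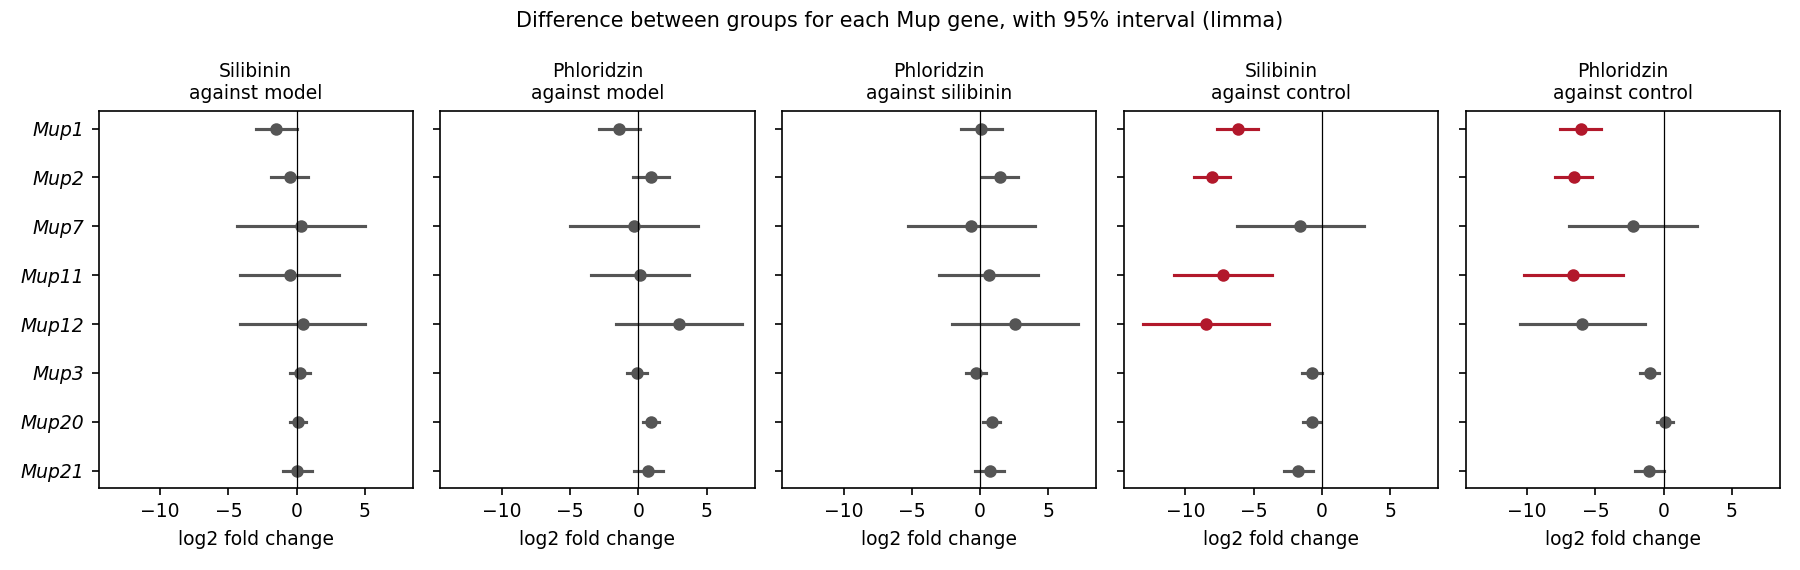
Log2 fold change (x axis, points) with its 95% interval (bars) for each of the 8 genes in 5 comparisons from the fit of all 12 livers. Red marks genes called DE. All such calls are against control livers, whose values were used to choose the genes, so they are a description. For Mup20 the interval is 0.32 to 1.54 against the model and 0.24 to 1.46 against silibinin, and against control it spans 0, with a point of 0.10 that turns to -0.14 after scaling by median ratios.

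The 12 Mup genes outside the 8 were also lower in sum in all 9 CCl4 livers than in any control liver. They summed to 2359, 1241 and 2743 FPKM in control livers, 160, 140 and 294 FPKM in model livers, 235, 452 and 199 FPKM in silibinin livers and 46.2, 142 and 199 FPKM in phloridzin livers. The sum of the near-identical 5 was likewise higher in every control liver than in any CCl4 liver. Within the CCl4 livers the 2 sums parted in phloridzin 1, which had the lowest sum of the 12 genes and the highest near-identical sum. Of the 12 genes, 3 were DE by limma in the model against control, all lower, against 1.13% of all genes tested that were DE and lower. They were Mup18 (log2 fold change -6.12, adjusted p = 0.00052), Mup9 (-4.50, adjusted p = 0.00058) and Mup10 (-2.68, adjusted p = 0.0426). Mup18 and Mup11, one of the 8, differ at 1 coding position. The calls of these genes against control are thus not separate from the contrast that chose the 8, and are given as a description. The call of Mup10 was lost by voom, with no filter, with protein-coding transcripts only, with only the 2 groups in the fit and without control 3, model 2, model 3, silibinin 2, phloridzin 2 or phloridzin 3. That of Mup18 was lost by voom and that of Mup9 with protein-coding transcripts only. Mup18 and Mup9 were also DE and lower in silibinin and in phloridzin livers against control; Mup9 was lost in both with protein-coding transcripts only, and Mup18 in silibinin livers by voom. Against the model, 0 of the 12 were called in either drug group by limma, with 0 at an unadjusted p under 0.05 and 0 by voom. Mup13 was the gene with the highest summed level, at 258, 829 and 739.8 FPKM in control livers, 91.7 to 103 FPKM in model livers and 0 in phloridzin 1.

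Several of these genes were high in few livers. Mup17 was at 1516 FPKM in control 1, at 1.08 and 0.236 FPKM in the other controls and at 0 in all 9 CCl4 livers. Mup15 was at 177, 0 and 1463 FPKM in control livers and at 179 FPKM in model 3 and 165 FPKM in silibinin 2. Mup8 was at 241 FPKM in control 2, 23.8 FPKM in silibinin 1, 18.2 FPKM in phloridzin 2 and 12.7 FPKM in phloridzin 1. Mup16 was at 115 FPKM in control 3 and Mup4 at 158 FPKM in silibinin 2. Mup4 has no near-identical partner, with 100% of its windows in no other gene, whereas Mup15 has 2.7%. Mup19 ranged from 0.464 to 272 FPKM and none of its windows is unique; Mup6 and Mup14 stayed between 0 and 11.6 FPKM in every liver.

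Other sex-biased liver genes were followed in lists written with earlier results of these data known. Of the 14 male-biased genes, 11 could be tested and 6 were DE in the model against control, all lower. They were the bile acid hydroxylase Cyp7b1 (log2 fold change -2.71, adjusted p = 0.0018), the fatty acid elongase Elovl3 (-2.89, adjusted p = 0.0135), Moxd1 (-4.48, adjusted p = 7.1e-05), Susd4 (-1.29, adjusted p = 0.00081) and the fatty acid hydroxylases Cyp4a12a (-1.13, adjusted p = 0.0219) and Cyp4a12b (-1.03, adjusted p = 0.0116). The call of Cyp4a12a was lost without control 2 (adjusted p = 0.0763) or model 1 (0.0736), and that of Cyp4a12b without control 1 or model 1 (log2 fold change -0.82 in both). The median log2 fold change of the 11 genes was -1.13, against 0.35 over all genes.

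In silibinin livers against the model, 0 of the 11 male-biased genes were DE by limma, with 0 at an unadjusted p under 0.05 and 0 by voom (median -0.03). In phloridzin livers 1 was DE, Cyp4a12b, which rose from 9.93, 17.4 and 14.4 FPKM in the model to 33.4, 34.3 and 45.4 FPKM (log2 fold change 1.40, adjusted p = 0.0062, higher in 3 of 3 livers), and the median was 0.92. Between the drugs, all 11 had a higher fitted value with phloridzin (median 1.04, against 0.03 over all genes), but 0 were DE by limma, 4 were at an unadjusted p under 0.05 and 0 were called by voom. The count of 11 rests in part on phloridzin 1, the liver that stood apart over all genes. Gstp1 was at 1733, 710 and 576 FPKM with phloridzin and 836, 873 and 846 FPKM with silibinin, higher in phloridzin 1 only. Cyp7b1, higher in all 3 phloridzin livers, was at 97.4, 65.2 and 44.8 FPKM with phloridzin, 16.4, 27.4 and 40.1 FPKM with silibinin and 31.2, 35.4 and 9.56 FPKM in the model. Against control, 4 of the 11 were DE and lower in silibinin livers and 1, Moxd1 (log2 fold change -3.17, adjusted p = 0.0038), in phloridzin livers. The 4 were Moxd1, Cyp7b1, Susd4 and Cyp4a12a; the call of Cyp4a12a was lost in 15 of 20 alternatives (adjusted p 0.0517 to 0.1711), among them without any 1 control or model liver, silibinin 1, silibinin 2, phloridzin 2 or phloridzin 3. That of Cyp7b1 was lost without control 1, control 3, silibinin 1 or silibinin 2, that of Susd4 by voom, at a pseudocount of 0.1 and without control 2, silibinin 1 or silibinin 3, and that of Moxd1 by voom.

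**Figure D5:**
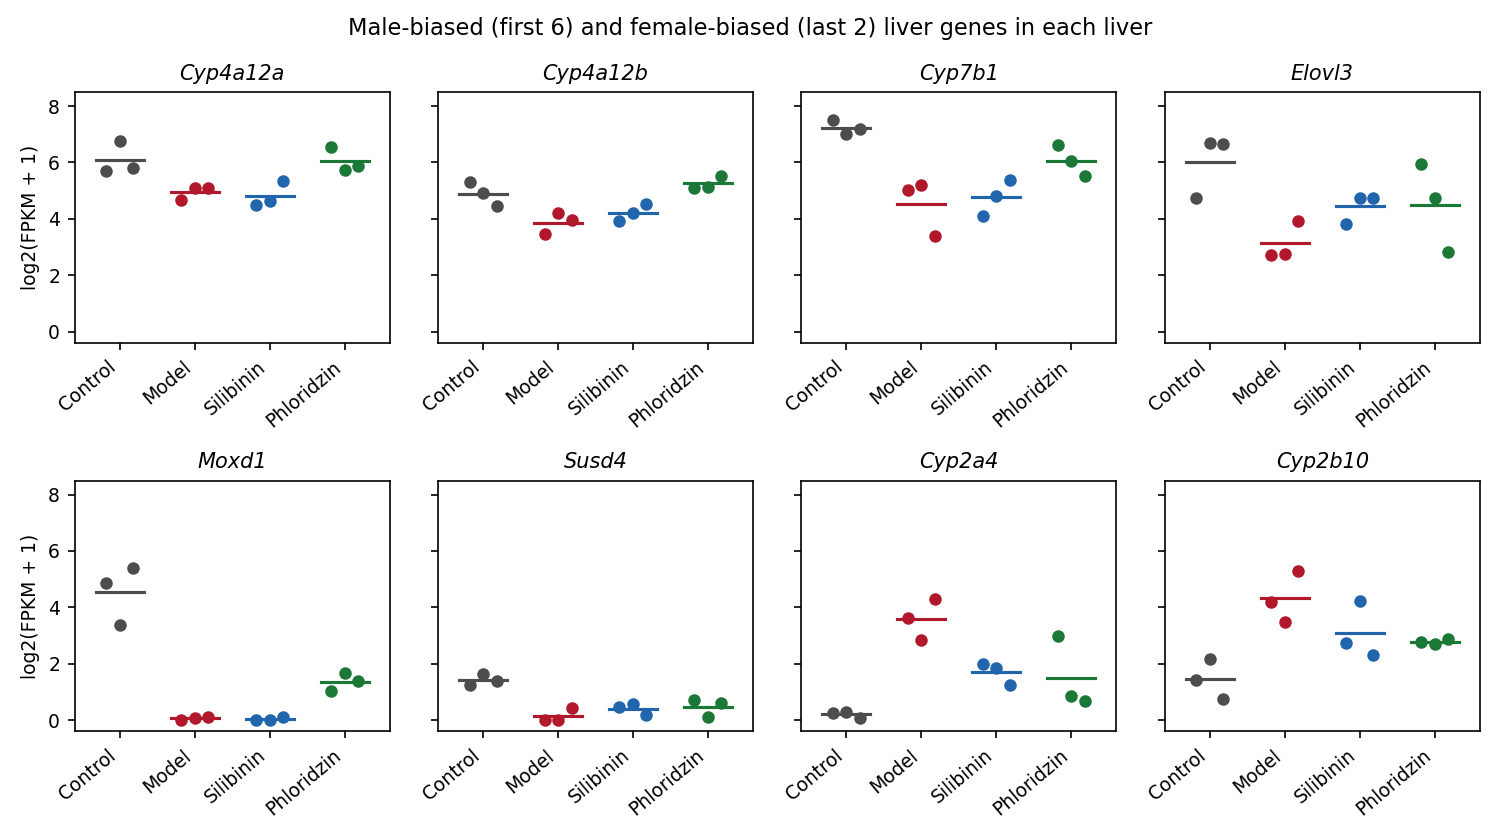
Level of 6 male-biased and 2 female-biased liver genes as log2(FPKM + 1) in each liver (points, 3 per group; lines are group means). The genes were picked by their calls in the model against control, the male-biased lower and the female-biased higher. Male-biased genes not called and the female-biased Cyp2c69, DE and lower (log2 fold change -1.92), are not drawn, so the panels do not stand for the lists. Cyp4a12b is at 33.4 to 45.4 FPKM in the phloridzin livers and 9.93 to 17.4 FPKM in the model livers, while the female-biased Cyp2a4 is at 6.10 to 18.7 FPKM in the model livers, 0.0630 to 0.234 FPKM in the control livers and 6.91 FPKM in phloridzin 1.

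Female-biased genes moved the other way in part. Of 25 listed, 14 could be tested, and in the model against control 4 were DE and higher: Cyp2a4 (log2 fold change 3.38, adjusted p = 0.0013), Cyp2b10 (2.87, adjusted p = 0.0029), Atp6v0d2 (1.26, adjusted p = 0.0013) and Abcd2 (1.04, adjusted p = 0.0495). Cyp2c69 was DE and lower (-1.92, adjusted p = 0.0062), a call lost by voom (0.0856). Over the 14 genes the median log2 fold change was 0.56, against 0.35 over all genes, and 9 had a higher fitted value. The call of Abcd2 was lost in most alternatives, among them without any 1 control or model liver, silibinin 2 or phloridzin 1, and that of Atp6v0d2 after scaling by median ratios. Cyp2a4 was at 0.181, 0.234 and 0.0630 FPKM in control livers and 11.4, 6.10 and 18.7 FPKM in model livers. It was lower than in the model with silibinin (log2 fold change -1.89, adjusted p = 0.0439) and with phloridzin (-2.08, adjusted p = 0.0317), where phloridzin 1, at 6.91 FPKM, lay inside the model range. The list as a whole did not move this way: its median log2 fold change against the model was 0.12 with silibinin and 0.16 with phloridzin, and 9 and 8 of the 14 genes had a higher fitted value. Abcd2 was at 3.47, 3.35 and 4.88 FPKM in model livers, 6.33, 7.04 and 16.8 FPKM with silibinin and 6.78, 13.3 and 5.38 FPKM with phloridzin, not called against the model (adjusted p = 0.0794 and 0.1484). The silibinin call of Cyp2a4 was lost without any 1 control or silibinin liver, model 1 or model 3, at a pseudocount of 0.1 (0.0786), with no filter (0.0648), with protein-coding transcripts only (0.0567) and after scaling (0.0571). The phloridzin call was lost with only the 2 groups in the fit (0.1266) and without model 1, model 3, phloridzin 2 or phloridzin 3.

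Of 12 genes of the growth hormone and STAT5 pathway, a known regulator of Mup genes, 11 could be tested and 2 were DE in the model against control by limma, 4 were at an unadjusted p under 0.05 and 3 were called by voom. Socs3, a feedback inhibitor of cytokine signalling, was higher (log2 fold change 1.59, adjusted p = 0.0103), and Igfals, which carries IGF1 in the blood, was lower (-1.09, adjusted p = 0.0153; lost without model 1, 0.0556, or model 2, 0.0545). Ghr, Stat5b, Igf1, Socs2 and Cish were not called; Igf1 had a log2 fold change of -0.50. Socs3 was lower than in the model with silibinin (-1.39, adjusted p = 0.0378) and phloridzin (-1.54, adjusted p = 0.0273). The phloridzin call was lost after scaling by median ratios, with only the 2 groups in the fit and without model 1, model 2, phloridzin 1 or phloridzin 3, and the silibinin call by voom, after scaling, with no filter, with protein-coding transcripts only, with only the 2 groups in the fit and without any 1 control or silibinin liver, model 1 or model 2.

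Among 20 hepatocyte transcription factors, 0 were DE in the model against control by limma, with 7 at an unadjusted p under 0.05 and 0 called by voom. Hnf4a, a master regulator of hepatocyte genes, was at 104 to 115 FPKM in control and 101 to 122 FPKM in model livers. Cebpa had a log2 fold change of -0.77 (adjusted p = 0.0096), short of the cutoff. Cebpb was lower than in the model with silibinin (-1.13, adjusted p = 0.0071) and with phloridzin (-1.12, adjusted p = 0.0078), short of the cutoff without model 2 (-0.87 and -0.86) and after scaling by median ratios, and with phloridzin also lost with only the 2 groups in the fit (adjusted p = 0.0512).

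Of 30 other abundant secreted proteins of hepatocytes, 24 had a lower fitted value in the model than in control (median log2 fold change -0.44, against 0.35 over all genes), and 8 were at an unadjusted p under 0.05. By limma 1 was DE, haptoglobin (Hp, log2 fold change -1.30, adjusted p = 0.0442), a call lost without any 1 model liver, control 1, control 3 or phloridzin 2, with no filter (0.0962) and with protein-coding transcripts only (0.0563). Serpina1e, chosen after its values were seen, went from 2443, 2856 and 871 FPKM in control livers to 41.04, 1889.7 and 15.6 FPKM in model livers without passing (log2 fold change -4.06, adjusted p = 0.0974). Vtn, chosen likewise, had a log2 fold change of -1.72 (adjusted p = 0.0770). Albumin (Alb) was at 10970.5, 15620.1 and 11509 FPKM in control and 13183, 20585 and 23528 FPKM in model livers. Ttr, which carries thyroid hormone, was at 39.8 FPKM in control 1 and 10.3 FPKM in phloridzin 1, against 706 to 2530.1 FPKM in the other livers. Serpina1b was DE and higher with silibinin (log2 fold change 2.67, adjusted p = 0.0360; lost without model 2, model 3, silibinin 1 or silibinin 3, and with no filter, 0.0537). Of 8 other lipocalins tested, 0 were DE in the model against control by limma, 2 were at an unadjusted p under 0.05 and 0 were called by voom; without control 2 the count was 2, Orm1 and Orm2. Lcn2 was at 298, 115 and 535 FPKM in control and 147, 165 and 39.97 FPKM in model livers (log2 fold change -1.40, adjusted p = 0.1959).

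Markers of liver zones and of other cell types moved between the same groups, and their part in the Mup values was not tested. Of 15 pericentral genes, 4 were DE and lower in the model against control: Slc1a2 (log2 fold change -5.41, adjusted p = 0.00031; lost by voom, 0.0525), Oat (-4.89, adjusted p = 7.2e-05), glutamine synthetase Glul (-3.43, adjusted p = 4.2e-06) and Cyp2e1 (-2.35, adjusted p = 0.0013). Against the model, 12 of the 15 had a higher fitted value with either drug (median 0.78 with silibinin and 0.64 with phloridzin). With silibinin 0 were called by limma, 9 were at an unadjusted p under 0.05 and 1 was called by voom. With phloridzin 8 were at an unadjusted p under 0.05 and 2 were called higher, Cyp7a1, the rate-limiting enzyme of bile acid synthesis (2.60, adjusted p = 0.0286; lost without model 2, phloridzin 2 or phloridzin 3 and with only the 2 groups in the fit), and Oat (1.64, adjusted p = 0.0334; lost without any 1 model liver, phloridzin 2 or phloridzin 3 and with only the 2 groups in the fit). Against control, 3 were still DE and lower with silibinin (Slc1a2, Oat and Glul, with Slc1a2 lost by voom) and 4 with phloridzin (these and Cyp2e1). Of 14 periportal genes, 1 was DE and lower in the model, Hal (-1.50, adjusted p = 0.0151), a call lost without control 2 or model 1. Hal was higher than in the model with silibinin (1.51, adjusted p = 0.0299; lost without model 1, model 2 or any 1 silibinin liver). G6pc was higher than in the model with phloridzin (1.21, adjusted p = 0.0479; lost in 14 of 20 alternatives, among them without any 1 control or model liver, silibinin 2, phloridzin 2 or phloridzin 3), and without phloridzin 1 the count of periportal genes called was 5 (Asl, Ass1, G6pc, Hal and Sds). Hsd17b13 was higher with phloridzin than in control livers (1.01, adjusted p = 0.0139; lost without control 1, control 3 or phloridzin 2, after scaling by median ratios and with only the 2 groups in the fit).

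Of 10 stellate cell and myofibroblast markers, 7 were DE and higher in the model and all 10 had a higher fitted value. Col1a1 (log2 fold change 4.35, adjusted p = 0.00039) and Col3a1 (3.75, adjusted p = 0.00036) led, with Col1a2 (1.52, adjusted p = 0.0197) and Lrat (1.47, adjusted p = 0.00029). The call of Col1a2 was lost without control 2, control 3 or model 1 and with protein-coding transcripts only. The 10 summed to 12.9 to 18.7 FPKM in control livers, 123 to 154 FPKM in model livers, 148, 141 and 62.7 FPKM in silibinin livers and 212, 77.7 and 59.1 FPKM in phloridzin livers, with Col3a1 the most abundant. Phloridzin 1 thus had the highest sum of these 10 markers among the 12 livers and the highest near-identical Mup sum of the CCl4 livers. Of 11 macrophage markers, 3 were DE and higher in the model (Lyz2, Itgam and Ccr2), and 10 had a higher fitted value. The 11 summed to 143 to 249 FPKM in control and 356 to 595 FPKM in model livers, with Lyz2 most abundant. Marco was higher with phloridzin than in control livers (3.27, adjusted p = 0.0346; lost without any 1 control liver, phloridzin 1 or phloridzin 2, by voom, with no filter and after scaling by median ratios). Of 10 endothelial markers, 0 were DE by limma in the model against control, 1 was at an unadjusted p under 0.05 and 0 were called by voom (sum 92.8 to 115 FPKM in control and 106 to 128 FPKM in model livers, Clec4g most abundant). In the model against control Spp1 was DE and higher among 4 cholangiocyte markers tested and Ptprc among 6 lymphocyte markers tested. With phloridzin against control Krt19 was DE and higher (1.22, adjusted p = 0.0081), a call lost with only the 2 groups in the fit. Of 6 exocrine pancreas markers in the table, 2 (Cpa1 and Cpb1) were at 0 in all 12 livers and 1, Cela1, could be tested; in the model against control 0 were called by limma, 0 were at an unadjusted p under 0.05 and 0 were called by voom.

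The family did not vary as a block. Over the 12 livers, on the log2 scale, r was 0.92 between Mup2 and Mup11, 0.91 between Mup11 and Mup12 and 0.82 between Mup3 and Mup11. Mup20 had r of 0.76 with Mup21, 0.61 with Mup12, 0.34 with Mup3 and 0.34 with Mup1. Mup7 had r between 0.19 and 0.59 with the other 7. These values describe 12 livers that fall into 4 groups, and near-identical genes share fragments, so no p is given.

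Among 10837 genes with a mean of at least 1 FPKM, those whose level ran most like the 8-gene sum over the 12 livers were Elovl3 (r = 0.89), Npr2 (0.88), Nxpe2 (0.87), Plbd1 (0.87) and Fitm1 (0.87). Elovl3, also on the male-biased list, was at 25.5, 102 and 99.3 FPKM in control livers, 5.61, 5.83 and 14.1 FPKM in model livers, 13.3, 26.0 and 25.6 FPKM in silibinin livers and 60.9, 25.7 and 6.14 FPKM in phloridzin livers. In both sets, control 1 was lowest of the controls and phloridzin 3 lowest of its group. The genes that ran most opposite were Ttyh2 (-0.95), Vps13a (-0.92), S100pbp (-0.92), Slc4a7 (-0.91) and Arhgap1 (-0.91). Mup20 alone ran most like Rusc2 (0.87) and Mpv17l (0.84), with Cyp7b1 (0.81) among its 5 closest. These are descriptions over the same 12 livers, with no p.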

How the data were processed

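The authors deposited an FPKM value per transcript and liver (169430 transcripts, 83.7 to 111 M fragments per library), scaled to length and library size; their notes name HISAT2 2.1.0, StringTie 1.3.3b and FastQC 0.11.5. The transcripts of a symbol were summed per gene. Protein-coding genes with a mean of at least 0.5 FPKM (11989) were tested by limma 3.58.1 with a trend on log2(FPKM + 1), in 1 fit of all 12 livers, two-sided, Benjamini-Hochberg over all genes. A gene was called DE at an adjusted p under 0.05 if its log2 fold change was also beyond 1 in size. The fit was also run on simulated data, and no result given here rests on that run. The members and gene lists were chosen with earlier results of these data known. Named are all Mup genes, 10 set genes (Ghr, Stat5b, Igf1, Socs2, Cish, Hnf4a, Cebpa, Alb, Ttr, Lcn2), up to 4 DE genes per list with the largest change, and the 5 genes most and least like the family sum; any further gene was chosen after its values were seen. Alternatives covered the pseudocount, filter, transcripts, scaling, groups, replicate block and each liver left out; voom on recovered fragments, and alternatives for the lists and all genes, were chosen after seeing the data. Software was R 4.3.3, data.table (version 1.17.8), Python 3.11.15, numpy 2.4.6, pandas 2.3.3, Biopython 1.88 and matplotlib 3.10.9.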

Additional observations from a re-analysis of the deposited data

How the results depend on the processing

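With 3 livers per group, near-identical sequences and no raw reads, the values hold for these livers as processed by the authors. The cause of any change below was not tested. Of the values compared with an alternative, 599 counts or set values and 3496 single values kept their reading, 80 and 139 moved, 1 and 36 changed direction, and 237 single calls were lost and 9 gained. Voom and the alternatives for genes called and for the lists were chosen after seeing the data.

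A pseudocount of 0.1 gave log2 fold changes in the model against control of -8.32 for Mup2 and -12.25 for Mup12, and -0.40 for Mup11 with phloridzin against the model. It gave 0 female-biased genes with silibinin against the model and 2 male-biased genes with phloridzin against the model. A mean of at least 1 FPKM gave 2 male-biased genes called with phloridzin against the model and 2 with silibinin against control. No filter gave 0 growth hormone genes and 0 female-biased genes with silibinin against the model. Protein-coding transcripts only gave -7.86 for Mup11 in the model against control and 0.34 for Mup11 with silibinin against the model, with 0 growth hormone genes, 0 female-biased genes with silibinin against the model and 1 of the other Mup genes in the model against control.

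Scaling by median ratios moved the median log2 fold change of all genes by -0.32 in the model against control, 0.16 with silibinin and 0.14 with phloridzin against the model, -0.02 between the drugs, and -0.16 and -0.18 against control. It gave, in the model against control, -1.36 for Mup3, -1.26 for Mup20 and a log2 ratio of -1.75 for the 8-gene sum, with 0.39 for that sum with silibinin against the model. It gave 0.10 for Mup3 with phloridzin against the model and -0.14 for Mup20 with phloridzin against control. Against the model it gave 0 growth hormone and 0 female-biased genes with silibinin, and with phloridzin 1 of the 8 members, 0 growth hormone and 3 male-biased genes; against control it gave 2 male-biased genes with phloridzin. With only the 2 compared groups in the fit, 9 female-biased genes were called in the model against control; 0 growth hormone genes with silibinin against the model; and 0 growth hormone, 2 male-biased and 0 female-biased genes with phloridzin against the model. Voom gave -8.57 for Mup2 and -16.38 for Mup12 in the model against control, -0.18 for Mup11 with phloridzin against the model and 0.0923 for Mup7 with silibinin against control. It called 3 female-biased genes and 1 of the other Mup genes in the model against control, 0 growth hormone genes with silibinin against the model and 2 male-biased genes with silibinin against control.

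For genes called, model against control, the count went from 1332 to 2454 with a pseudocount of 0.1 and 2327 by voom. For genes called, silibinin against control, it went from 261 to 828 and 612. For genes called, phloridzin against control, it went from 401 to 1096 and 837, while scaling gave 258 and the 2 groups alone 167. With a liver left out, these counts ran from 1203 to 1394, from 107 to 395 and from 224 to 628 in the same order, and between the drugs from 1 to 6 (3 with all livers).

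With each of the 12 livers left out in turn, lowest and highest were, in the model against control, 1 and 3 growth hormone genes, 0 and 1 transcription factors, 0 and 2 secreted proteins, 0 and 2 lipocalins, 0 and 3 periportal genes, and -3.41 and 1.10 for Mup7. With silibinin against the model they were 0 and 1 members, 0 and 2 growth hormone genes, 0 and 2 female-biased genes, 0 and 1 transcription factors, 0 and 1 secreted proteins, 0 and 1 pericentral genes, 0 and 2 periportal genes, 0 and 1 endothelial markers, -0.52 and 1.44 for Mup7, -1.58 and 0.20 for Mup11, 0 and 0.65 for Mup12, -0.03 and 0.27 for Mup20, and -0.32 and 0.25 for Mup21. With phloridzin against the model they were 0 and 1 members, 0 and 2 growth hormone genes, 1 and 3 male-biased genes, 0 and 2 female-biased genes, 0 and 1 transcription factors, 0 and 2 secreted proteins, 0 and 3 pericentral genes, 0 and 5 periportal genes, -0.34 and 0.29 for Mup3, -1.10 and 0.78 for Mup7, 0.10 and 1.37 for Mup2, -2.13 and 1.29 for Mup11, and 0 and 4.49 for Mup12. Between the drugs they were -0.34 and 0.91 for Mup1, 0.63 and 1.89 for Mup2, -0.58 and 0.0457 for Mup3, -1.43 and 0.20 for Mup7, -1.62 and 1.79 for Mup11, and -0.43 and 4.06 for Mup12. With silibinin against control they were 2 and 4 members, 1 and 4 male-biased genes, 1 and 4 female-biased genes, 0 and 1 secreted proteins, 0 and 1 periportal genes, 0 and 1 cholangiocyte markers, and -3.09 and 1.43 for Mup7. With phloridzin against control they were 1 and 2 male-biased genes, 1 and 3 female-biased genes, 0 and 1 secreted proteins, 0 and 1 lipocalins, 0 and 3 periportal genes, 1 and 5 macrophage markers, 1 and 2 cholangiocyte markers, 1 and 2 lymphocyte markers, -3.74 and 0.78 for Mup7, and -0.0595 and 0.30 for Mup20.

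The livers of the groups share replicate numbers. Over 18 pairs of livers with the same number, r of the residuals ran from -0.112 to 0.083 (0 over 0.1), and over 36 pairs with different numbers from -0.143 to 0.142 (4 over 0.1), so the numbers do not pair livers. With a block on the number, calls lost were, by adjusted p, Mup12 (0.0717) and Cyp4a12a (0.0818) with silibinin against control, Serpina1b with silibinin against the model (0.0679), Abcd2 in the model against control (0.0600) and Itgam with phloridzin against control (0.0607).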

Other observations

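Assembled transcripts without a gene symbol or position held 25.5, 29.8 and 29.8% of all FPKM in the control livers and 19.4 to 21.3% in the other 9 livers. The assembled locus with the highest FPKM, numbered 31033 and made of 90 transcripts, was at 26669, 54374 and 58305 FPKM in control livers, 4688, 3549.8 and 3905 FPKM in model livers, 5003, 5135 and 3977 FPKM in silibinin livers and 20223, 5799.6 and 4721 FPKM in phloridzin livers. Its log2 level had an r of 0.957 with the log2 sum of Mup1, Mup2, Mup7, Mup11 and Mup12 over the 12 livers, against -0.019 and 0.232 for the next loci by FPKM, numbered 10370 and 9584. No sequence or position is given for it, so which genes it covers, and whether it holds Mup RNA, was not tested. The Mup sums and their folds leave it out.

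The Y-linked genes Kdm5d (2.22 to 6.71 FPKM) and Uty (2.56 to 7.43 FPKM) were read in all 12 livers, as for male mice. Hsd3b5, a male-biased steroid dehydrogenase, was at 0 to 1.41 FPKM over the 12 livers.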
